A study of Mus musculus with 9 samples.

Results

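The NR4A orphan nuclear receptors Nr4a1, Nr4a2 and Nr4a3 were followed by their RNA in BMMCs (bone marrow-derived mast cells). The 3 genes were chosen by name, and each had a row of its own among the 47643 genes of the count table. Bone marrow of C57BL/6 mice had been grown into mast cells in medium conditioned by WEHI-3 cells, a line that secretes IL-3, and the 9 libraries fell into 3 groups of 3. Control BMMCs carried the treatment label Control. BSA cells carried the label IgE+BSA and are described in the study as stimulated through DNP-IgE and DNP-BSA, a hapten-specific IgE and its antigen. The BSA + luteolin group, labelled IgE+BSA+Luteolin, also received luteolin, a plant flavonoid, at 10 µM for 24 h. The length of the antigen stimulation before RNA extraction is not given in the sources used here, and the study's text differs on whether luteolin came before or after the antigen. Nothing in the labels says that the libraries of a group came from separate cultures or animals, so p-values measure only the spread between these samples, which may be technical.

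NR4A proteins are transcription factors of the nuclear receptor superfamily. They are called orphan receptors because their ligand pocket is filled by bulky side chains and no classical hormone is known to switch them on, so their activity follows largely from how much of each protein is made. Their genes are immediate-early genes, transcribed soon after growth factors, cAMP, calcium or antigen receptor signals, through factors such as CREB, MEF2 and SRF. Nr4a1 (also Nur77) is best known from T cell receptor signaling, Nr4a2 (Nurr1) from dopaminergic neurons, and Nr4a3 (NOR-1) from activated lymphocytes, muscle and mast cells. Each binds an 8-base site called the NBRE as a monomer, and Nr4a1 and Nr4a2 can also pair with retinoid X receptors.

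In GRCm38 with GENCODE annotation, Nr4a1 (ENSMUSG00000023034) lies on the plus strand at chr15:101254269-101274795, Nr4a2 (ENSMUSG00000026826) on the minus strand at chr2:57106830-57124003, and Nr4a3 (ENSMUSG00000028341) on the plus strand at chr4:48045153-48086447. All 3 are protein-coding, and no other annotated gene overlaps any of them. The sequence just upstream of each start is shown because the 3 genes responded together and because all 3 windows hold the same short motif. Capitals mark TGACG or its reverse complement CGTCA, the 5-base core of the cAMP response element (CRE) bound by CREB. The sequences are RefSeq's for GRCm38.p6, written 5′ to 3′ on the gene's own strand. They cover chr15:101266596-101266845 for Nr4a1, chr2:57124004-57124253 for Nr4a2, and chr4:48045055-48045152 for Nr4a3, of which only the stretch before the first GENCODE exon is printed. None of the 3 printed stretches contains an annotated exon. That of Nr4a1 lies inside the span of the gene, upstream of the RefSeq start used here.
Nr4a1: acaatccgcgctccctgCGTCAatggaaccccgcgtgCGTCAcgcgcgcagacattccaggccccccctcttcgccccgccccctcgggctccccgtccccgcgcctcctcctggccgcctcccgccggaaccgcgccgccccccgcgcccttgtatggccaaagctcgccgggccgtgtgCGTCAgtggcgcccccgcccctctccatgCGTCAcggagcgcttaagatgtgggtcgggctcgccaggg
Nr4a2: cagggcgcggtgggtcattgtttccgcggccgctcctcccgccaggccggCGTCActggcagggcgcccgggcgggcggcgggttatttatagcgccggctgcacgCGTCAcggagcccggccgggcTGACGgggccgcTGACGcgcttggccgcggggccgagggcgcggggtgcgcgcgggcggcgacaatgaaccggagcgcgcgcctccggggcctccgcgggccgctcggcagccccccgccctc
Nr4a3: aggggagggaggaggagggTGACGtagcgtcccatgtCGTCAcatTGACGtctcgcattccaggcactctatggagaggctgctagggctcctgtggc

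Each window of 250 bases before the start held 4 CRE cores, counted on both strands. They lay 233, 213, 69 and 40 bases before the start of Nr4a1, 200, 144, 123 and 111 bases before that of Nr4a2, and 231, 213, 205 and 147 bases before that of Nr4a3, where 3 of the 4 fall in the printed stretch. Of 32851 mouse promoter windows of this length, 17.8% held at least 1 CRE core, and 45 windows, or 0.137%, held 4 or more. The NR4A windows are rich in G and C, at 74.4%, 80% and 63.6% for Nr4a1, Nr4a2 and Nr4a3 against a median of 52.4%, and among the 9178 windows with at least 60% the share with 4 or more CRE cores was 0.37%. In Nr4a1 all 4 lay within the longer word TGCGTCA, which was searched after the sequences had been seen. It occurred in 1.75% of windows, 4 times in 1 window only, and not at all in Nr4a2 or Nr4a3.

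**Figure D1:**
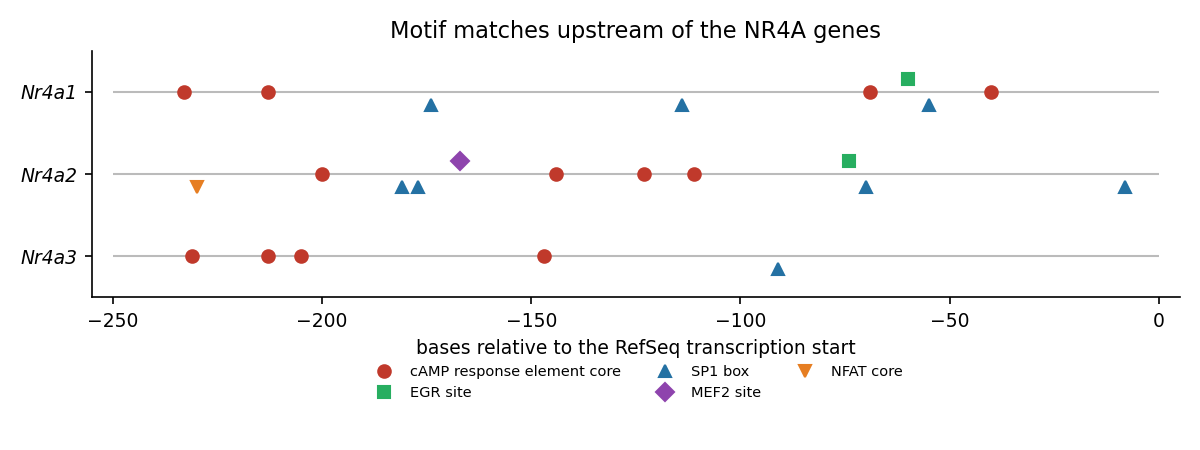
Matches to 5 motifs, on either strand, in the 250 bases upstream of the RefSeq start of each NR4A gene, by their distance from the start in bases. Each gene has 4 cores of the cAMP response element (red circles), spread over the window in Nr4a1 and kept to its upstream part in Nr4a3.

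Other motifs differed between the 3 genes. The SP1 box GGGCGG was found 3 times in Nr4a1, 4 times in Nr4a2 and once in Nr4a3, and 32.7% of all windows had at least 1. The EGR site GCGNGGGCG, bound by another immediate-early factor, was found once each in Nr4a1 and Nr4a2, where it overlaps an SP1 box, and 4.7% of windows had it. The MEF2 site occurred once, in Nr4a2 (2.92% of windows), as did the short NFAT core GGAAA (55.6%). None of the 3 windows held the full element TGACGTCA (1.55%), the AP-1 site TGANTCA (6.75%), the NBRE AAAGGTCA (1.34%), a CArG box (1.47%) or an NF-kB site (7.25%). These matches are letters in a window, and no binding was measured.

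Total counts ranged from 9515004 in Control replicate 2 to 24605689 in BSA + luteolin replicate 2. Scaled to the library's total alone, without the TMM factor, 3 counts were thus worth 0.122 to 0.315 CPM. The CPM levels of genes and the marker sums given below are read counts scaled to the library's total and TMM factor. The defining mast cell markers were at high levels, with the 10 genes summing to between 54501 and 82288 CPM and none at 0, whereas the 6 T and B cell markers summed to at most 0.77 CPM. The Control libraries were not alike. The 11 neutrophil and eosinophil markers, of which Siglecf is also made by mast cells, summed to 253 CPM in Control replicate 1 but to 20.0 and 15.7 CPM in replicates 2 and 3, against 170.5 to 186.5 CPM in BSA and 189.8 to 227.7 CPM in BSA + luteolin. The basophil gene Mcpt8 likewise was at 431.8 CPM in Control replicate 1 and at 21.8 and 18.7 CPM in replicates 2 and 3, whereas the 3 basophil markers together summed to 1446 to 1879 CPM over the 9 libraries. The 8 macrophage markers summed to 303 to 369 CPM in every library. The defining eosinophil gene Prg2 had 648 counts in Control replicate 1, and 1 and 0 in replicates 2 and 3, and Epx had 35, 0 and 0. Of the other eosinophil markers, Siglecf went the other way, at 4.1, 12.9 and 10.1 CPM in Control replicates 1, 2 and 3. Ear1 was at 0 in all 3. Control replicate 1 also differed beyond these markers. The 10 mast cell markers summed to 82288 CPM there, and to 54501 and 54784 CPM in replicates 2 and 3. Between the counts of 2 libraries, the chi-square per degree of freedom was 75.4 and 120 for Control replicate 1 against replicates 2 and 3. It was 5.81 for replicate 2 against replicate 3. The part of these differences in the comparisons with Control was not tested. The members' fold changes and the list counts against Control are therefore also given without Control replicate 1 and without Control replicates 2 and 3. The latter fit has a lone Control library, takes its spread from the other group alone and assumes that the lone library varies likewise, so its counts and p-values describe that library and are no replicated test. The comparison of BSA + luteolin with BSA uses no Control library.

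Nr4a1 was the most abundant member in every library. Its TMM-normalized level was 644.2, 314.8 and 361.5 CPM in Control replicates 1, 2 and 3, 2416, 2463 and 2475 CPM in BSA, and 1105, 1172 and 1199 CPM in BSA + luteolin. In bulk RNA of this kind, fewer expressing cells and less RNA per cell cannot be told apart. The 3 groups did not overlap, with BSA highest, BSA + luteolin between and Control lowest. The share of all genes whose groups keep apart is not given, so separation is only a description here and below. The spread was widest in Control, where replicate 1 stood well above the other two, and smallest in BSA, at 2451 ± 31.4 CPM (SD, n = 3).

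Nr4a2 had much lower levels and the same order of groups. It measured 35.2, 22.2 and 27.6 CPM in Control, 281.7, 213.0 and 318.0 CPM in BSA, and 107.5, 101.3 and 178.9 CPM in BSA + luteolin. Again no library of one group reached another, although BSA replicate 2 and BSA + luteolin replicate 3 came within a short distance of each other. The means were 28.3 ± 6.53, 270.9 ± 53.3 and 129.2 ± 43.1 CPM (SD, n = 3 each).

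Nr4a3 had the widest range of the 3 as a fold, though not in CPM. Its level was 23.7, 29.7 and 36.6 CPM in Control, 699.0, 566.5 and 751.5 CPM in BSA, and 34.7, 46.4 and 57.8 CPM in BSA + luteolin. Here only BSA stood apart: the lowest BSA + luteolin library was below the highest Control library. The counts behind the low values were ample, at 307 to 888 reads in Control and 745 to 1196 in BSA + luteolin, so counting error is small beside the spread.

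**Figure D2:**
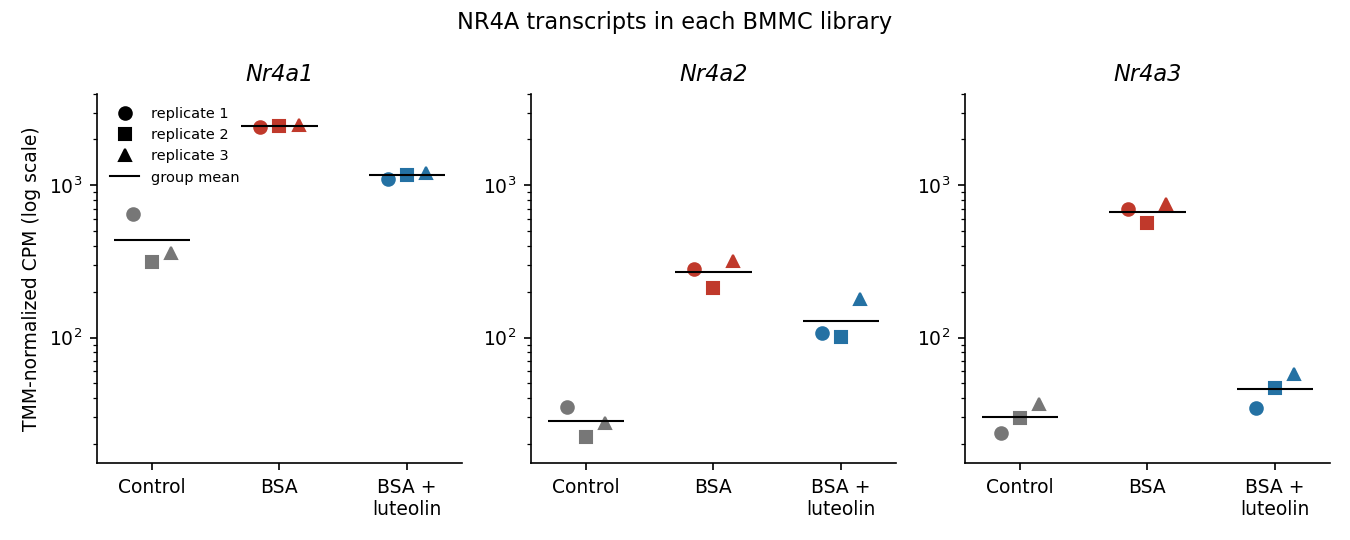
TMM-normalized CPM (log axis) of Nr4a1, Nr4a2 and Nr4a3 in the 9 BMMC libraries, with a symbol for each replicate and a line at the mean of each group. All 3 genes are highest in BSA; with luteolin Nr4a1 and Nr4a2 stay above every Control library, whereas Nr4a3 overlaps Control.

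Per length the members kept a fixed leader and exchanged the places below it. On the scale of CPM per kb of exon, Nr4a1 averaged 125 in Control, 699 in BSA and 330 in BSA + luteolin. Nr4a2 averaged 6.98, 66.7 and 31.8, and Nr4a3 5.01, 112 and 7.74, on the same scale and in the same order of groups. Nr4a3 was thus above Nr4a2 in BSA and below it in BSA + luteolin. In Control the means of Nr4a2 and Nr4a3 lay close, with SDs of 1.61 and 1.07 CPM per kb (n = 3). Within each Control library Nr4a3 was below Nr4a2, with a log2 ratio of -1.13, -0.14 and -0.15 in replicates 1, 2 and 3. As a share of the summed NR4A level, Nr4a3 made up 4.08 ± 1.79% in Control, 12.8 ± 1.42% in BSA and 2.08 ± 0.39% in BSA + luteolin (SD, n = 3 each).

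**Figure D3:**
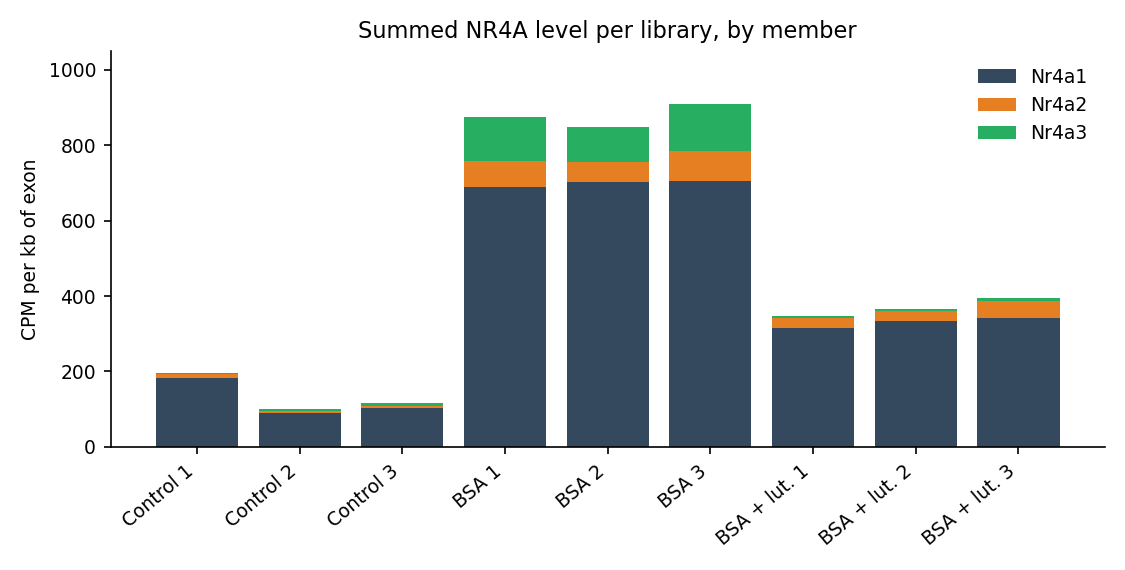
Stacked bars of the level of each NR4A member in CPM per kb of exon, 1 bar for each of the 9 libraries. The summed level is between 100 and 196 in Control, between 849 and 909 in BSA and between 347 and 395 in BSA + luteolin, and Nr4a3 (green) takes its largest share of it in BSA.

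Stimulation was examined by comparing BSA with Control, and all 3 members rose. Nr4a3 increased by 4.48 on the log2 scale (SE 0.21, 95% interval 4.0 to 4.96, adjusted p = 0.000173), a 22.4-fold difference that ranked 3 among all 11560 genes tested. Nr4a2 increased by 3.25 (SE 0.23, 2.71 to 3.78, adjusted p = 0.000633) and Nr4a1 by 2.47 (SE 0.28, 1.82 to 3.12, adjusted p = 0.00487), ranking 17 and 37. All p-values of this kind are from edgeR's quasi-likelihood test, two-sided, with Benjamini-Hochberg adjustment over all genes tested. Of those genes 2.25% rose and 1.02% fell in this comparison, and their median log2 fold change was 0.02. The balance turned with the scaling: by library size alone 1.5% rose and 2.55% fell, with a median of -0.15, and the members still rose by 2.31 (Nr4a1), 3.08 (Nr4a2) and 4.30 (Nr4a3).

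The sizes of the rises depended on which Control libraries were used. Without Control replicate 1 the log2 fold changes were 2.81 for Nr4a1, 3.37 for Nr4a2 and 4.27 for Nr4a3, all past the threshold. Against the lone Control replicate 1 they were 1.91, 2.92 and 4.80, given as values without a test. Measured on mean CPM, the rise of Nr4a1 was 3.8-fold over Control replicate 1 and 7.25-fold over the mean of replicates 2 and 3, while that of Nr4a3 was 28.3-fold and 20.3-fold. Control replicate 1 was thus the highest Control library for Nr4a1 and Nr4a2 and the lowest for Nr4a3. It was also the library with the granulocyte markers, whose part in this was not tested.

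To assess luteolin, BSA + luteolin was compared with BSA, and all 3 members were downregulated by unequal amounts. Nr4a3 fell by 3.86 on the log2 scale (SE 0.14, 95% interval -4.15 to -3.56, adjusted p = 5.52e-13). This was a 14.5-fold lower level, ranking 14 from the bottom of all genes tested. Nr4a1 fell by 1.08 (SE 0.05, -1.19 to -0.97, adjusted p = 2.59e-11) and Nr4a2 by 1.07 (SE 0.16, -1.41 to -0.72, adjusted p = 8.51e-05), which were 2.11-fold and 2.10-fold lower levels. Changes were common here, since 21.9% of all genes tested fell and 18.1% rose, so a call alone does not set the members apart. By library size alone 15.3% fell and 33.4% rose, with a median of 0.13 in place of 0.02, and the members' values were -0.97 (Nr4a1), -0.95 (Nr4a2) and -3.74 (Nr4a3), all past the threshold. Nr4a1 and Nr4a2 ranked 538 and 550 from the bottom. Cell type markers also moved here: 6 of 10 mast cell markers were higher and 2 lower (median 0.30), with Hdc, the histamine-forming enzyme, at -1.16. All 3 basophil markers were higher (median 0.21), as were 2 of 7 neutrophil markers, S100a8 (0.43) and S100a9 (0.32), and of 3 eosinophil markers tested Siglecf was lower. The part of these shifts in the members' falls was not tested.

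The ratio between members within a library tests whether the falls were equal, and it is free of the scaling between libraries. The log2 ratio of Nr4a3 to Nr4a1 was 2.80 lower with luteolin than with BSA alone, and over the 9 pairings of a library of each group the difference lay between -3.27 and -2.25. The ratio of Nr4a3 to Nr4a2 was 2.78 lower (-3.04 to -2.37). Neither ratio overlapped between the groups, and for both the exact two-sided permutation test gave p = 0.1, the smallest that 3 against 3 libraries allow (adjusted p = 0.129 over 9 ratio comparisons). The ratio of Nr4a2 to Nr4a1 differed by only -0.02 and overlapped (exact permutation p = 0.9), with pairings from -0.57 to 0.79. That range is of single libraries and is no interval for the difference of the means. An equal fall of these 2 genes was therefore not shown. In BSA against Control the same ratios had risen by 1.95 for Nr4a3 to Nr4a1, 1.24 for Nr4a3 to Nr4a2 and 0.71 for Nr4a2 to Nr4a1, each without overlap and each at p = 0.1 by the exact permutation test.

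How much of the rise remained with luteolin was read from the means, as the level in BSA + luteolin above Control over that in BSA above Control. For Nr4a1 35.7% of the rise remained, and single BSA + luteolin libraries gave 33.1 to 37.7%. For Nr4a2 it was 41.6%, with a wide range of 30.1 to 62.1% set by the high replicate 3. For Nr4a3 2.54% remained (0.74 to 4.33%). Against Control replicate 1 alone the shares were 28.5% for Nr4a1, 39.9% for Nr4a2 and 3.48% for Nr4a3, and against replicates 2 and 3 they were 38.8%, 42.4% and 2.06%.

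The last comparison, BSA + luteolin with Control, shares its libraries with the other two and gives the distance left. Nr4a2 was higher by 2.18 (SE 0.27, 95% interval 1.55 to 2.81, adjusted p = 0.0119) and Nr4a1 by 1.39 (SE 0.26, 0.79 to 1.99, adjusted p = 0.0387). For Nr4a3 the log2 fold change was 0.62 (SE 0.23, 0.08 to 1.16, adjusted p = 0.176), and the groups overlapped. In this comparison 0.285% of all genes tested were higher and 2.75% lower. These calls rested on single libraries and on the test: Nr4a1 passed in 1 and Nr4a2 in 2 of the 6 fits that left out a library, and with limma on log2 CPM, the test the study used, the adjusted p of Nr4a1 was 0.0501. For Nr4a3 the value was 0.45 (adjusted p = 0.0172) without Control replicate 1, past the threshold. Against the lone Control replicate 1 it was 0.96, given as a value without a test.

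**Figure D4:**
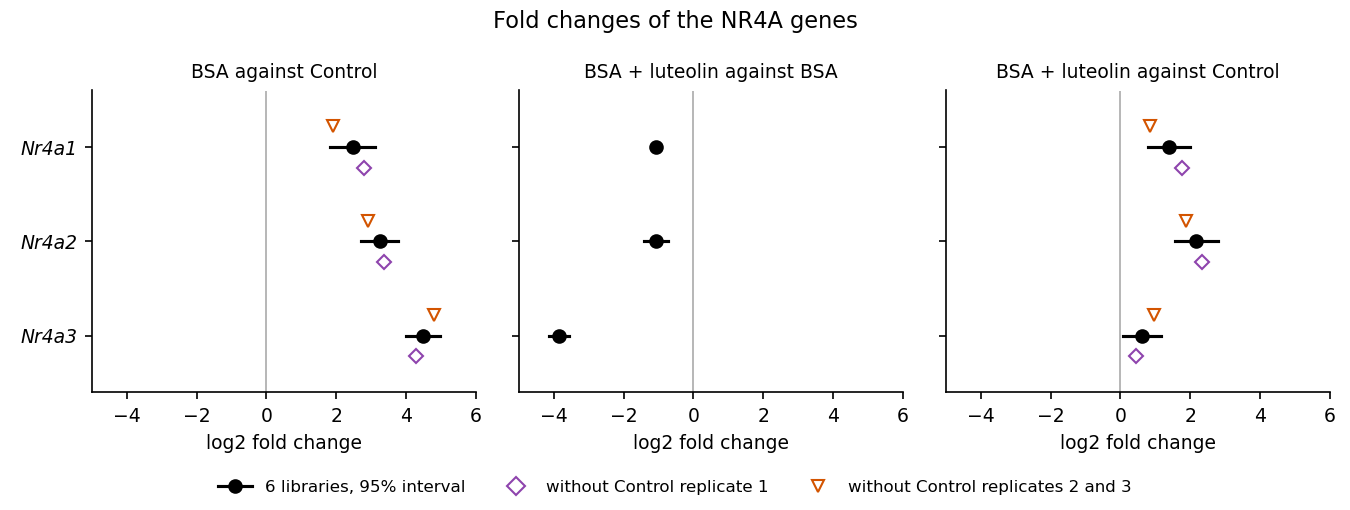
Log2 fold changes of Nr4a1, Nr4a2 and Nr4a3 in the 3 comparisons, from edgeR, as black points with 95% intervals. Open symbols give the value without Control replicate 1 or without Control replicates 2 and 3, and they keep the sign in every case; in the middle panel Nr4a3 lies at -3.86 and the other two near -1.07.

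Most of the other nuclear receptors differed less than the members did. The family has 49 genes in the table, of which 24 were tested, members included. In BSA against Control the family median was -0.05. The 3 members were the genes of the family that passed the threshold, all upward, where 2.25% of all genes tested rose and 1.02% fell. This count depended on Control. Without Control replicate 1, 4 rose and 10 fell, and the one riser besides the members was Nr2f6 (0.52), while Nr3c2 (-1.96), the mineralocorticoid receptor, and Vdr (-1.77), the vitamin D receptor, had the largest falls. Against the lone Control replicate 1, where only the BSA libraries give the spread, 11 were called higher and 1 lower, with Nr2c2 at 1.17 and Rora at 1.11. Over all genes tested, 22.6% were higher and 22.4% lower in the first of these fits and 23.1% and 19.2% in the second.

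With luteolin 11 of the 24 nuclear receptors fell and 2 rose against BSA, where 21.9% and 18.1% of all genes tested did so, and the median was -0.23 beside 0.02 over all genes. By library size alone 8 fell and 4 rose, beside 15.3% and 33.4% of all genes tested. Besides the members, the lower ones with the largest change were Nr1d2 (-0.56), a circadian repressor, and Nr2c2 (-0.47), while Esrra, a regulator of mitochondrial genes, rose by 0.38 and Rarg, a retinoic acid receptor, by 0.21. No nuclear receptor other than the 3 members passed the threshold with a 2-fold change in this comparison. Nr6a1, which was low and variable, had -1.06 (SE 0.54) and did not pass.

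**Figure D5:**
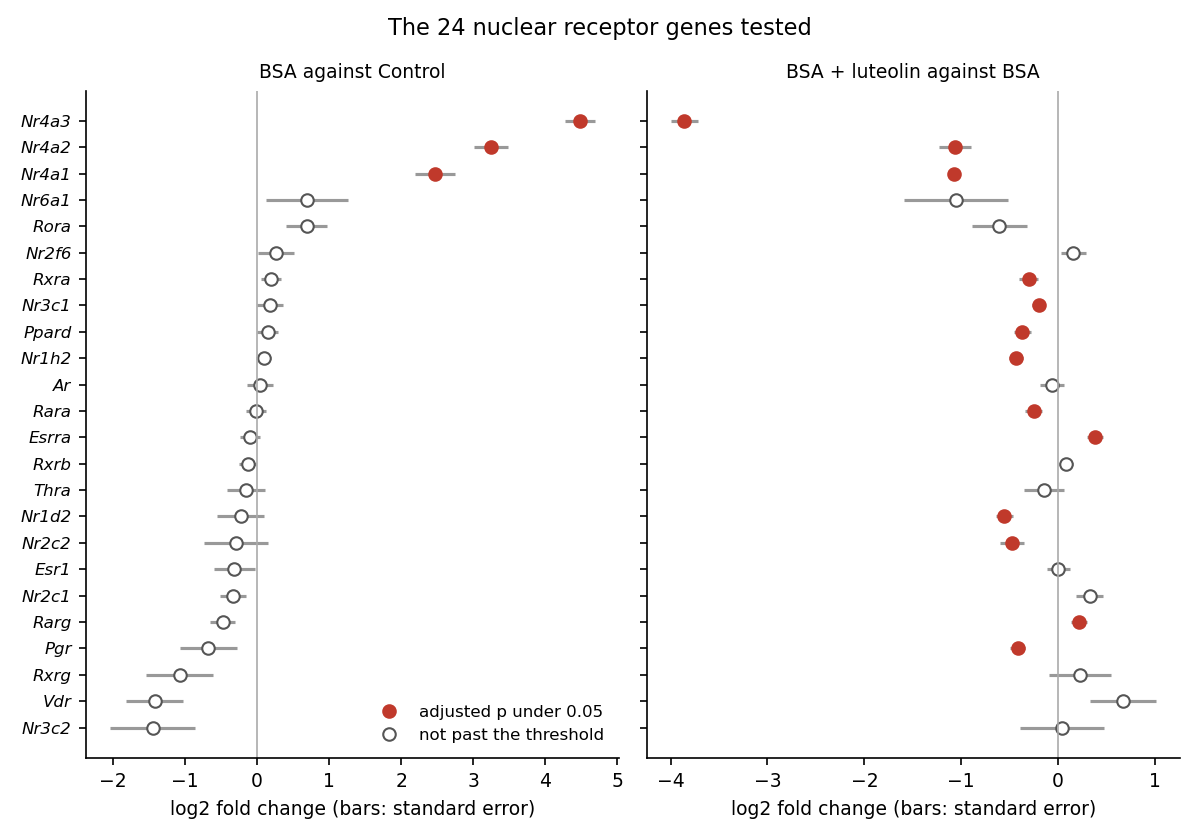
Log2 fold change with standard error of the 24 nuclear receptor genes tested, in BSA against Control (left) and in BSA + luteolin against BSA (right), in the order of the left panel. Filled points passed an adjusted p of 0.05 in edgeR; the 3 NR4A genes lie farthest to the right on the left panel, and on the right panel Nr4a3 lies farthest to the left.

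The partners and inputs of the NR4A proteins were taken from lists. Of the 3 retinoid X receptors none passed in BSA against Control, and Rxra fell by 0.31 with luteolin (adjusted p = 0.0257), a call that was lost when scaled by library size alone. Of 10 coregulators, the coactivators and corepressors that nuclear receptors recruit, none passed with stimulation, where only 2.25% of all genes tested rose and 1.02% fell. With luteolin 7 fell and 2 rose (median -0.30), where 21.9% and 18.1% of all genes tested did so. The coactivator Ncoa2 fell by 0.87 (adjusted p = 4.36e-08), and the corepressor Ncor1 fell by 0.33. The 2 that rose, Kdm1a at 0.19 and Trim28 at 0.17, changed little. By library size alone 5 coregulators fell and 2 rose, beside 15.3% and 33.4% of all genes tested. The absence of calls with stimulation again depended on Control: without Control replicate 1, 2 of the 10 coregulators rose and 3 fell, near the 22.6% and 22.4% of all genes tested, and Rxrg fell by 1.52. Against the lone replicate 1, with the spread from BSA only, 8 coregulators were called higher and 1 lower, beside 23.1% and 19.2% of all genes, with Rxra at 0.44 and Rxrb at -0.31.

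Of the 14 transcription factors and cofactors known to act upstream of NR4A genes 13 were tested. None passed with stimulation (median 0.20), where only 2.25% of all genes tested rose and 1.02% fell. With luteolin 8 fell while none rose (median -0.21), beside 21.9% and 18.1% of all genes tested. By library size alone 5 fell and none rose, beside 15.3% and 33.4%. Srf, the serum response factor, was at 68.6, 73.0 and 59.6 CPM in Control, 89.1, 95.8 and 88.0 CPM in BSA and 42.9, 46.2 and 36.2 CPM in BSA + luteolin. It thus fell by 1.12 against BSA (adjusted p = 7.96e-09), and it was the 1 gene of the list past the threshold against Control, lower by 0.69 (adjusted p = 0.0473). Srf was at -0.66 without Control replicate 1, where 6 of the 13 were lower and none higher beside 30.1% and 29.9% of all genes tested. It was at -0.71 against the lone replicate 1, with the spread from BSA + luteolin only, where 4 were called higher and 1 lower beside 11.6% and 9.55%. Crem, a cAMP-responsive relative of CREB, fell by 0.78, and Mef2d by 0.40. Of the 5 repressors of MEF2, Hdac4 (-0.60), Cabin1 (-0.25) and Hdac7 (-0.21) fell with luteolin and none passed with stimulation, although Hdac5 (-0.64) and Hdac9 (-0.97) did, downward, when Control replicate 1 was left out, and Hdac4 (0.59) upward against the lone replicate 1. By library size alone 1 of the 5 fell with luteolin, beside 15.3% of all genes tested. The absence of calls with stimulation held for the spread of all 3 Control libraries only: without Control replicate 1, 3 of 13 upstream factors rose and 3 fell, where 22.6% and 22.4% of all genes tested did so. Against the lone replicate 1, with the spread from BSA only, 11 were called higher and none lower, beside 23.1% and 19.2% of all genes.

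Genes described in other tissues as controlled by NR4A proteins were taken from a list of 19, of which 9 passed the filter on low values. Havcr2, which encodes the inhibitory receptor TIM-3 made by mast cells and exhausted T cells, was the 1 gene of the 9 that passed the threshold with stimulation, beside 2.25% of all genes tested that rose. It measured 302.2, 441.9 and 364.5 CPM in Control, 899.5, 735.1 and 960.1 CPM in BSA and 208.7, 215.7 and 246.2 CPM in BSA + luteolin, so the 3 groups did not overlap. Havcr2 rose by 1.23 with stimulation (adjusted p = 0.0116) and fell by 1.95 with luteolin (adjusted p = 7.93e-12). Every BSA + luteolin library lay below every Control library, a difference of -0.73 that did not pass the threshold (adjusted p = 0.06), but did so at -0.86 without Control replicate 1. Spp1, encoding osteopontin, fell by 0.56 and Tnfsf10, encoding the death ligand TRAIL, by 0.38 with luteolin, and in BSA against Control they had 1.07 (adjusted p = 0.123) and 0.08 (adjusted p = 0.883). With Havcr2 these made 3 of the 9 that fell with luteolin, while none rose, beside 21.9% and 18.1% of all genes tested, and by library size alone 3 fell and 2 rose, beside 15.3% and 33.4%. The medians of the 9 were 0.27 with stimulation and -0.09 with luteolin. Without Control replicate 1, 4 of the 9 rose in BSA, where 22.6% of all genes tested did so, with Spp1 at 1.54, the cell cycle factor E2f1 at 1.19 and Havcr2 at 1.05. Against the lone replicate 1, with the spread from BSA only, 4 were called higher, beside 23.1% of all genes, with Havcr2 at 1.5.

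The genes whose levels ran most nearly parallel to each member over the 9 libraries were listed, 5 for each. Likeness was measured by Pearson's r of log2 CPM among the genes tested, as a description, since the libraries form 3 groups and much of any r is the group difference. Closest to Nr4a1 were Ptgs2 (r = 0.997), the inducible cyclooxygenase, the chemokine gene Ccl1 (0.994), Lcp1 (0.993), Ttc7 (0.993) and Egr1 (0.989), itself an immediate-early gene. Closest to Nr4a3 were Spry1 (0.992), an inhibitor of receptor tyrosine kinase signaling, Gpr171 (0.991), the AP-1 gene Fosb (0.989), the kinase gene Map3k8 (0.988) and Dcaf1 (0.987). Closest to Nr4a2 were Pola1 (0.989), Clic4 (0.981), Abce1 (0.979), Larp1 (0.978) and Ncapd3 (0.977), with log2 fold changes of only 0.34 to 0.81 in BSA against Control. By Spearman's rank correlation none of these genes was among the 5 listed for its member. Over 9 libraries rank correlations tie easily, with all 5 genes listed for Nr4a3 at 1. Ties were broken by gene identifier, so these lists can be partly arbitrary. In them Nr4a1 and Nr4a2 shared E2f4 and Atp6v0a1, and Larp1 was listed for Nr4a1. Between the members, r was 0.97 for Nr4a1 and Nr4a2, 0.84 for Nr4a1 and Nr4a3 and 0.82 for Nr4a2 and Nr4a3.

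The cores shared by the 3 promoters were set against the response of other genes. Of the 6101 genes tested whose windows held none, 1.93% rose in BSA against Control. The share was 2.51% with 1 CRE core, 3.51% with 2, 4.88% with 3 (6 of 123 genes) and 8.57% with 4 or more (3 of 35 genes), beside 2.25% of all genes tested. The 3 in the last group were Nr4a1, Nr4a2 and Nr4a3 themselves. None of the other 32 passed by edgeR, and their log2 fold changes lay between -0.57 and 0.98, the highest being Ell2 (adjusted p = 0.1), an elongation factor gene. The order did not hold without Control replicate 1, where 22.4%, 24.6%, 29.9%, 24.4% and 25.7% rose with none, 1, 2, 3 and 4 or more cores, and 6 of the other 32 did. Against the lone replicate 1, with the spread from BSA only, 22.3%, 23.6%, 28.0%, 30.9% and 40% were called higher, the last being 34.4% (11 of 32) without the members. With luteolin against BSA, 20.0% of genes with no core fell, 21.9% with 1, 31.4% with 2, 36.6% with 3 and 48.6% with 4 or more (17 of 35), beside 21.9% of all genes tested, and 14 of the 32 that are no members fell. These shares were taken with TMM scaling only, and a gene with several windows was placed by the window with the most cores. The part of the cores, or of the G and C content of the windows, in any of these shares was not tested.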

How the data were processed

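RNA was measured in 9 BMMC libraries, 3 per group by their labels. The authors made stranded mRNA libraries, filtered reads with HTStream, aligned them with STAR 2.7.0f (per the submitters' processing notes) to mm10, and what they deposited is 1 table of raw counts for Ensembl genes. The annotation release, the strand setting and the handling of multimapping reads are not given in the sources used here. Gene symbols were matched for 47224 of 47643 identifiers. Genes with a median CPM above 1 over the 9 libraries, the filter that the study states, were tested (11560, which is not the number the study's methods give after it), and all 3 members passed.

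The tests were run with edgeR 4.0.16 under R 4.3.3 (quasi-likelihood, TMM factors, threshold 0.05) on the 6 libraries of each comparison. This test was set in the mistaken belief that the study's methods name none. They name limma on TMM-normalized log2 CPM, which was therefore added afterwards as an alternative (limma 3.58.1). DESeq2 1.42.0 was another. SE is the log2 fold change over the square root of F. The script was tested on simulated data. Floors of 3 counts cover counting error only. Exon lengths and coordinates are from GENCODE for GRCm38. Promoter windows are RefSeq's for GRCm38.p6, and all 3 members matched. Replicates differed by more than sampling noise. The chi-square per degree of freedom was 3.82 to 13.2 between replicates, except for 75.4 and 120 for Control replicate 1 against replicates 2 and 3.

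The members and gene lists were chosen with earlier results of these data known. The text names the 3 members, from each list up to 3 genes past the threshold, by size of change, the 5 genes most like each member, and nuclear receptors past the threshold with a 2-fold change. A gene that this rule would name is not reported here. Spp1 and Tnfsf10 in BSA against Control, Srf, Nr6a1, Ell2, the cell type markers and the genes given under other Control sets were named after their values were seen. Alternatives covered scaling, filter, test, libraries in the fit, the replicate block and each replicate left out. Those without Control replicates 2 and 3, and limma on log2 CPM, were chosen after seeing the data.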

Additional observations from a re-analysis of the deposited data

How the results depend on the processing

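In BSA against Control and in BSA + luteolin against BSA, Nr4a1, Nr4a2 and Nr4a3 kept direction and call under every alternative run. Leaving out 1 library gave 2.27 to 2.81, 3.10 to 3.39 and 4.27 to 4.65 in the first comparison for Nr4a1, Nr4a2 and Nr4a3, and -1.11 to -1.05, -1.38 to -0.92 and -4.05 to -3.70 in the second. In BSA + luteolin against Control the ranges were 1.21 to 1.76 for Nr4a1, 1.87 to 2.34 for Nr4a2 and 0.43 to 0.79 for Nr4a3. There Nr4a1 passed only without Control replicate 1 (largest adjusted p by edgeR 0.188), and Nr4a2 without Control replicate 1 or without BSA + luteolin replicate 3 (largest 0.0767). Limma on log2 CPM gave Nr4a1 1.46 and no call. Without Control replicates 2 and 3 Nr4a3 was at 0.96, a value without a test, since the spread of that fit comes from the BSA + luteolin libraries alone. Counts of genes past the threshold moved more. For BSA against Control (378) they were 618 with no filter on low counts, 1227 by DESeq2, 1105 with all 9 libraries in the fit, 4892 without Control replicates 2 and 3 (a lone Control library), and 90 to 5207 with 1 library left out, the highest without Control replicate 1. For BSA + luteolin against Control (351) they were 811, 1379, 1251 and 2447 under the same settings, and 2 to 6931 with 1 library left out, the lowest without BSA + luteolin replicate 2 and the highest without Control replicate 1. For BSA + luteolin against BSA (4624) they were 1093 with all 9 libraries in the fit and 3242 to 5082 with 1 left out. Limma on log2 CPM gave 387, 3455 and 280 in the order BSA against Control, BSA + luteolin against BSA and BSA + luteolin against Control. Scaling by library size alone turned the balance of higher and lower genes, from 260 and 118 to 173 and 295 in BSA against Control and from 2097 and 2527 to 3856 and 1767 in BSA + luteolin against BSA. The cause of these moves was not tested.

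Without Control replicates 2 and 3 the log2 ratio of Nr4a3 to Nr4a1 became 2.89 in BSA against Control and turned to 0.087 in BSA + luteolin against Control (-0.85 with all 3), and that of Nr4a3 to Nr4a2 became 1.89 and -0.89. The replicate block took the counts to 144, 5582 and 212 and changed no member's call, with 2.55, 3.26 and 4.50 for Nr4a1, Nr4a2 and Nr4a3 in BSA against Control. The labels of the replicates share only a number, and correlations of same-numbered libraries ranged from -0.26 to 0.31. Their mean was 0.14 in BSA + luteolin against BSA, 0.12 in BSA + luteolin against Control and -0.02 in BSA against Control. For libraries of different number it was -0.07, -0.07 and 0.01 in the same order, so a pairing was neither shown nor excluded. Depth limits little for the members, whose lowest count was 230.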
